A study of Mus musculus with 2 samples.

Results

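Hepatocyte identity transcription factors were compared in regenerating livers of WT and PPARβ-null (KO) mice, as 9 genes of the 11025 whose FPKM averaged 1 or more over both libraries. FPKM gives fragments mapped to a gene, scaled to its exon length and to the size of the library. The members were chosen as genes that hold the hepatocyte program, and each was looked up by its symbol in the deposited table. All 9 symbols (Hnf4a, Foxa1, Foxa2, Foxa3, Cebpa, Cebpb, Onecut1, Prox1 and Nr5a2) were found, each in 1 row, and all of them reached that mean. Hepatic RNA came from male C57BL/6 mice, aged 4 months on the sample labels, at 48 hr after partial hepatectomy (PH), the surgical removal of liver lobes that sets off regrowth. The WT group was 1 library and the KO group was 1 library from PPARβ-null mice, which lack PPARβ in all tissues. There were no replicates, the sources used here do not say whether RNA of several mice was pooled, and no difference below has a replicate check.

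The identity of a hepatocyte is held by a small network of transcription factors that bind the promoters and enhancers of liver genes and of each other. HNF4α is a nuclear receptor needed for most hepatocyte functions, and the FOXA proteins are pioneer factors that open liver chromatin. C/EBPα supports metabolic genes and restrains growth, whereas C/EBPβ serves the acute phase response and the first hours of regeneration. ONECUT1, also called HNF6, acts in liver and bile duct development. PROX1 is a homeobox factor of the early liver bud, and NR5A2, also called LRH-1, is a nuclear receptor of bile acid and cholesterol genes.

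Within each library, Hnf4a was the most abundant of the factors and Foxa1 the least. The 9 factors together had 405 FPKM in WT and 412 FPKM in KO, and Hnf4a made up 42.4% and 46.9% of these sums. None of the factors differed by more than 1.5-fold between the libraries as deposited, and their KO/WT ratios of FPKM ran from 0.722 for Foxa1 to 1.35 for Prox1. Among all 11025 genes, 20.2% were more than 1.5-fold lower and 4.15% more than 1.5-fold higher in KO, and 8.91% and 1.75% passed 2-fold in these directions. The median log2 KO/WT of the factors was -0.054 and that of all genes was -0.24, a median shift of 1.18-fold towards WT. This shift was not uniform: 75.7% of genes were lower in KO by any amount. The 25th and 75th percentiles of log2 KO/WT were -0.50 and -0.0086. Of all genes, 67.0% had a ratio between those of Foxa1 and Prox1, so values in this range were common. Relative to the median of all genes, the ratio was 1.57 for Foxa3 and 1.60 for Prox1, so that 2 of the 9 factors then lay above 1.5-fold, beside 7.43% of all genes.

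**Figure D1:**
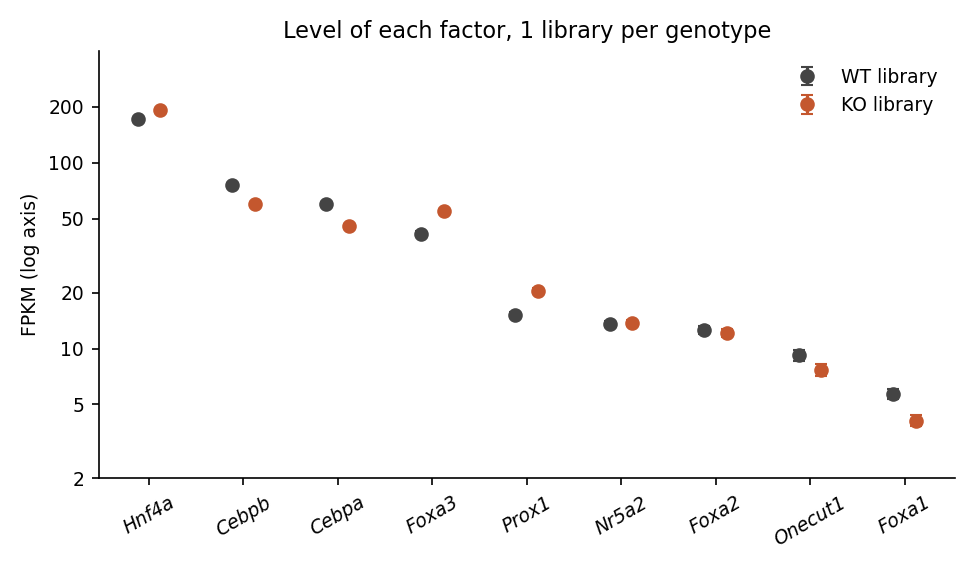
FPKM of the 9 factors in the WT (grey) and KO (orange) library on a log axis, 1 point per library, with bars for the 95% Poisson counting interval, often narrower than the point. Hnf4a stands highest at 172 and 193, and the order of the others differs between the libraries only in that Foxa3 lies above Cebpa in KO.

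The libraries were deep enough that counting error was small for each factor. From the smallest values of single-exon genes, 1 FPKM on a transcript of 1 kb was worth about 53.7 fragments for WT and 55.8 for KO. Estimated from the longest annotated transcript, the fragments behind a factor ran from 729 (Foxa1 in KO) to 47000 (Hnf4a in KO). The 95% intervals of levels (Poisson) and of ratios (exact binomial) cover counting error only. Ppard itself had 2.67 FPKM in WT and 2.42 FPKM in KO, a KO/WT ratio of 0.906 (0.794 to 1.04), so its locus-wide level did not check the genotype labels. Hepatocyte markers had a value for 9 of 10 genes, from Asgr1 (304 and 337) up to Ahsg (5309 and 5991). Of these, 3 (Ass1, Cps1 and Tat) were more than 1.5-fold lower and 2 (Cyp2e1 and Fgb) more than 1.5-fold higher in KO. The shares of all genes were 20.2% lower and 4.15% higher by that fold. The row of Alb carried the status HIDATA and was left out, so its missing value does not stand for a low level. All 4 pancreatic acinar markers were listed at 0.

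Hnf4a (chr2:163332544-163398646, plus strand, NCBIM37) had 172 FPKM in WT and 193 FPKM in KO. Its level lay above that of 96.3% of genes in WT and 97.3% in KO. The KO/WT ratio was 1.12 with an interval from 1.11 to 1.14, and it was 1.33 relative to the median of all genes. The row of Hnf4a carried the status FAIL, by which Cuffdiff marks an exception during its test, while both FPKM were given. The antisense gene 0610008F07Rik overlaps Hnf4a and differed in the other direction, at 5.58 FPKM in WT against 3.15 FPKM in KO. The counting is not stated to use strand, so where their exons overlap the reads of the antisense pair cannot be told apart. Hnf4a has 7 annotated transcripts, and the table gives 1 value for all of them.

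The Foxa genes went different ways. Foxa3 (chr7:19598631-19608887, minus strand), the family member that is most abundant in adult liver, had 41.5 FPKM in WT and 55.02 FPKM in KO. This is a KO/WT ratio of 1.33 (1.28 to 1.38). Foxa2 (chr2:147868613-147872705, minus strand), which also serves the response to fasting, had 12.6 FPKM in WT and 12.1 FPKM in KO, with a ratio of 0.964 whose interval of 0.895 to 1.04 included 1. Foxa1 (chr12:58641618-58647108, minus strand), which can stand in for Foxa2 in the developing liver, had the lowest levels, 5.68 in WT and 4.10 in KO. Its ratio of 0.722 had the interval 0.655 to 0.796, which reaches past the 1.5-fold line. Relative to the median of all genes Foxa3 had a ratio of 1.57, Foxa2 of 1.14 and Foxa1 of 0.855.

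Shares within the family do not depend on how the libraries are scaled. Foxa3 made up 69.4% of the summed Foxa FPKM in WT and 77.2% in KO. The share of Foxa2 was 21.1% in WT and 17.0% in KO, and that of Foxa1 was 9.49% and 5.75%. The ratio of Foxa3 to Foxa1 was 7.31 in WT and 13.4 in KO, so this balance differed by 1.84-fold between the libraries.

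**Figure D2:**
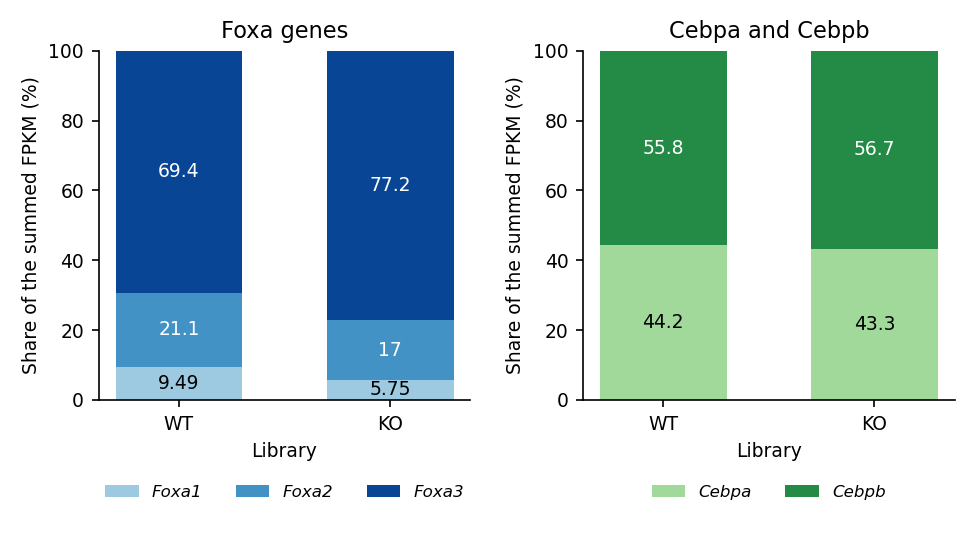
Share of each gene in the summed FPKM of its family, in percent, for the WT and KO library (1 library each), with Foxa1, Foxa2 and Foxa3 at the left and Cebpa and Cebpb at the right. The Foxa3 segment is 69.4% in WT and 77.2% in KO, while the Cebpa segment is 44.2% and 43.3%.

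The C/EBP genes were both lower in KO as deposited. Cebpa (chr7:35904312-35906945, plus strand, a gene with a single exon) had 60.1 FPKM in WT and 45.8 FPKM in KO, a KO/WT ratio of 0.761 (0.737 to 0.786). Cebpb (chr2:167514415-167515918, plus strand, also of a single exon) had 75.8 FPKM in WT and 59.8 FPKM in KO, a ratio of 0.790 (0.761 to 0.820). Relative to the median of all genes these ratios were 0.901 and 0.935, closer to 1 than as deposited. Cebpb stood above Cebpa in each library. The ratio of Cebpb to Cebpa was 1.26 in WT and 1.31 in KO, a change of 1.04-fold. The long and short proteins made from each of these mRNAs are set by translation and are not seen here. Tmem189 on the other strand overlaps Cebpb in the annotation, and its joint row with Ube2v1 had 39.2 FPKM in WT and 40.7 FPKM in KO.

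Prox1 (chr1:191945660-191994559, minus strand) had the highest KO/WT ratio of the factors. It had 15.2 FPKM in WT and 20.4 FPKM in KO, a KO/WT ratio of 1.35 (1.29 to 1.41) and of 1.60 relative to the median of all genes. The divergent noncoding gene Gm17566, whose start overlaps that of Prox1 on the other strand, had 1.76 FPKM in WT and 2.68 FPKM in KO, a ratio of 1.52. Prox1 can also be made by lymphatic endothelium. The lymphatic and sinusoidal markers Lyve1 and Flt4 were lower in KO, with KO/WT ratios of 0.430 and 0.533, and the part of such cells in the Prox1 value was not tested.

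Nr5a2 was nearest to a ratio of 1 as deposited, and Onecut1 was nearest to the median of all genes. Nr5a2 (chr1:138740161-138857004, minus strand), the LRH-1 receptor that PROX1 can repress, had an FPKM of 13.6 in each library, with a KO/WT ratio of 1.005 whose interval ran from 0.953 to 1.06. Onecut1 (chr9:74709728-74737591, plus strand) shares its row with the noncoding gene Gm16551, and the joint value was 9.21 in WT and 7.69 in KO. The ratio of 0.835 (0.757 to 0.920) was 0.988 relative to the median of all genes, with an interval from 0.896 to 1.09. Nr5a2 and Foxa2 are neighbours in the order of levels, and their counting intervals overlapped in WT (13.1 to 14.1 and 11.96 to 13.3). With fragments estimated from the longest transcript, all other neighbours in the order lay apart by more than counting error in each library. The shortest transcript gives fewer fragments for some factors, as for Foxa2 in KO (525 in place of 1442), and so wider intervals, whose overlap was not computed.

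**Figure D3:**
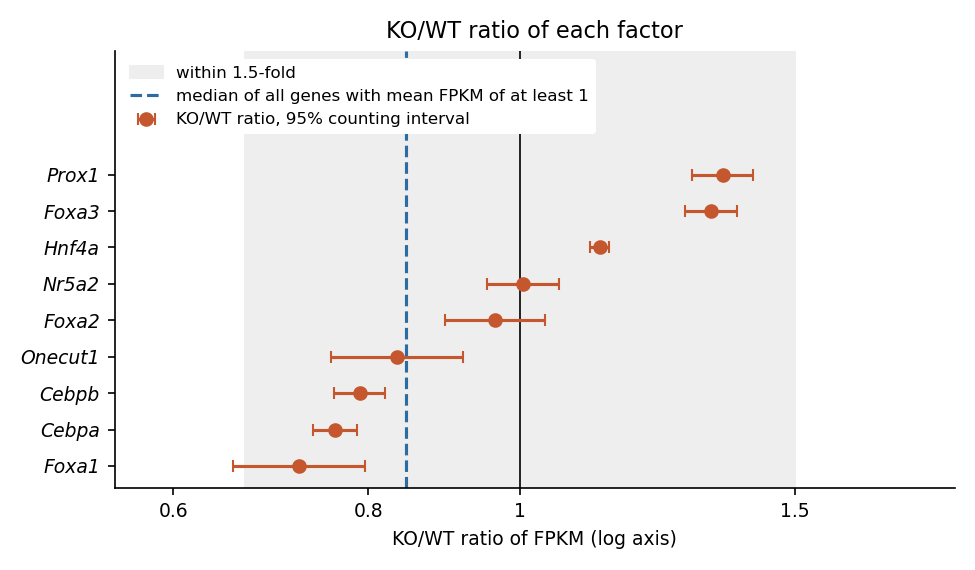
KO/WT ratio of FPKM for each factor on a log axis, with the 95% exact binomial counting interval as bars, the median of all genes averaging 1 FPKM or more as a dashed line at 0.845, and the range within 1.5-fold shaded. All 9 ratios lie inside the shaded range, with Prox1 and Foxa3 at its upper side and Foxa1, Cebpa, Cebpb and Onecut1 near or below the dashed line.

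Ratios between the factors within a library are free of scaling and set their balance apart from the median shift of all genes. Of the 36 pairs, 9 changed by more than 1.5-fold between the libraries and none by more than 2-fold, with a median of 1.32-fold. In each of the 9, the factor that stood relatively higher in KO was Prox1, Foxa3 or Hnf4a, and its partner was Foxa1, Cebpa, Cebpb or Onecut1. Each change is the quotient of the KO/WT ratios of its factors, so these sides follow from the order of those ratios. The same holds for the small changes among factors on the same side, and neither is a separate result. The share of all gene pairs past 1.5-fold was not computed. The largest was Prox1 to Foxa1, with a ratio of 2.67 in WT and 4.99 in KO (1.87-fold). Foxa3 to Cebpa followed the same course, from 0.690 in WT to 1.20 in KO, and this pair is where the order of levels differed between the libraries. Pairs among Prox1, Foxa3 and Hnf4a changed by 1.02-fold to 1.20-fold, and pairs among Foxa1, Cebpa, Cebpb and Onecut1 by 1.04-fold to 1.16-fold.

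The promoters of Prox1 and Foxa1, at the ends of the range of ratios, and that of Hnf4a, the most abundant factor, are printed because each holds a match to the binding motif of a factor of the network. The windows are RefSeq sequences on GRCm38.p6, from 250 bases before to 50 bases after a start site, 5′ to 3′ along the gene, and capitals mark the match. They lie at chr12:57546062-57546361 (Foxa1, minus strand), chr1:190169466-190169765 (Prox1, the downstream of its start sites, minus strand) and chr2:163506607-163506906 (Hnf4a, the upstream of its start sites, plus strand).
Foxa1: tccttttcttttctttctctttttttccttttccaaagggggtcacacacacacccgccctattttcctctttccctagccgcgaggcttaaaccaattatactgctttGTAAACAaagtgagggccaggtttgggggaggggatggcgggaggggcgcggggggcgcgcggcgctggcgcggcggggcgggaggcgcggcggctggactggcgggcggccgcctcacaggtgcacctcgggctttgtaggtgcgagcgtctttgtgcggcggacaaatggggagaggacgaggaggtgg
Prox1: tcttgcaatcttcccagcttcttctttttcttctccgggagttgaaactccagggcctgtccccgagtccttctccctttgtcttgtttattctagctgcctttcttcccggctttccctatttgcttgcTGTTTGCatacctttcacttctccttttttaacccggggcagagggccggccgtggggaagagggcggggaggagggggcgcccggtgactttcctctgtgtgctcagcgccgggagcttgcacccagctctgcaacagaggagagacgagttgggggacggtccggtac
Hnf4a: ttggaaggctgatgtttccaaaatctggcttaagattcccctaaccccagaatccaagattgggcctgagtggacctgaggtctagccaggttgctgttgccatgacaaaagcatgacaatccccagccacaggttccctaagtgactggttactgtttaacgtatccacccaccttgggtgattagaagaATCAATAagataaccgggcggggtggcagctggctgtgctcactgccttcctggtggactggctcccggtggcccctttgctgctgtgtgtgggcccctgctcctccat

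All 9 factors had windows in that table, 14 in number. The capitals in Foxa1 are the FOXA motif TGTTTAC on the opposite strand, at bases 110 to 116, a motif found in 3.65% of all 32851 windows. Those in Prox1 are the FOXA motif TGTTTGC at bases 131 to 137, found in 5.07% of windows. Those in Hnf4a are the ONECUT motif ATCAATA at bases 192 to 198, found in 2.05% of windows, which the upstream window of Foxa2 also held. The other window of Hnf4a and that of Prox1 held none of these motifs. Which start sites were used in these livers was not analysed, so the matches are not tied to the levels above. No window of the factors matched CAAAGTCCA (HNF4, in 0.475% of windows), TTGCGCAA (0.183%) or TTGCNNAAT (2.40%) for C/EBP, CAAGGTCA (1.56%) or CAAGGCCA (2.40%) for NR5A, or GGNCAAAGG (1.87%), the core of the DR1 element read by PPAR and HNF4α. Both strands were searched, and a match is a run of letters and not a measured site.

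Among 16 other liver-enriched transcription factors the spread was wider. Their median log2 KO/WT was 0.14, with 5 of them more than 1.5-fold higher and 2 more than 1.5-fold lower in KO. Among all genes, 4.15% were more than 1.5-fold higher and 20.2% more than 1.5-fold lower. Atf5, a stress-responsive factor that is abundant in hepatocytes, had 108 FPKM in WT and 229 FPKM in KO. Creb3l3, a fasting-induced factor of lipid genes, had 75.04 and 147. Nr0b2 (SHP), a corepressor of HNF4α and LRH-1 that bile acids induce, had 15.4 in WT and 34.2 in KO, the highest KO/WT ratio of the list at 2.22. Tbx3 (8.53 and 17.0) and Hhex (35.8 and 56.8), both factors of the liver bud, were the other members above 1.5-fold. The members more than 1.5-fold lower in KO were Zbtb20 (11.9 and 6.76, in a joint row with Mir568), a repressor of fetal liver genes, and Gata6 (4.70 and 2.80). Nr1h4 (31.3 and 30.6), the bile acid receptor FXR, had a KO/WT ratio close to 1. Of 12 coactivators and corepressors of the network, Nr0b2 alone passed 1.5-fold, and the median log2 KO/WT was -0.18. Ncor1 (24.6 and 24.7) hardly differed, whereas Hdac3 (19.5 and 13.8), which works with PROX1 and HNF4α, and Ppargc1a (2.83 and 1.97), a coactivator of fasting genes, had ratios of 0.711 and 0.697.

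Known target genes of most factors were found on both sides of a KO/WT ratio of 1. For scale, 4.15% of all genes were more than 1.5-fold higher in KO and 20.2% more than 1.5-fold lower. Of 12 HNF4α targets, 1 was more than 1.5-fold higher (Apob, 823 in WT and 1282 in KO) and 1 more than 1.5-fold lower (Slc27a5, a bile acid-CoA ligase, 268 and 173). The median log2 KO/WT of these targets was -0.10. The most abundant of them, Apoa2 (5080 and 5916) and Apoc3 (1971 and 2025), encode apolipoproteins. The FOXA targets with a value numbered 6, among them Tat (1115 and 595), a tyrosine-degrading enzyme, and Igfbp1 (108 and 360), a secreted binder of insulin-like growth factors, which went opposite ways. Alb and Trf of this list carried the status HIDATA and were left out, and the median log2 KO/WT of the others was -0.15. Of 6 C/EBPα targets, the urea cycle gene Cps1 (1597 and 743) and Tat were more than 1.5-fold lower, and G6pc (55.3 and 109), which releases glucose, was more than 1.5-fold higher in KO. Their median log2 KO/WT was 0.09.

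The acute phase genes that C/EBPβ can drive were higher in KO in 7 of 7 cases. In 6 of them the difference was more than 1.5-fold, and the median log2 KO/WT was 1.46. Cebpb itself was lower in KO as deposited, and its part in the values of these genes was not tested. Itih4 had 784 FPKM in WT and 2162 FPKM in KO, and Lcn2 had 538 and 1935. Orm2 was the exception to the fold, at 365 and 470. Of all genes, 4.15% were more than 1.5-fold higher and 20.2% more than 1.5-fold lower in KO. Of 7 genes under LRH-1, Cyp7a1, the rate-limiting enzyme of bile acid synthesis, had 30.1 in WT and 1.21 in KO. Nr5a2 had 13.6 in each library, and its part in the Cyp7a1 values was not tested. Cyp8b1 (69.1 and 67.8), the sterol hydroxylase that LRH-1 is best known to drive, had a ratio of 0.981. Scarb1 (51.0 and 80.5) and Nr0b2 were more than 1.5-fold higher, and the median log2 KO/WT of these genes was 0.05. The 4 genes listed under ONECUT1 were all lower in KO, as were 75.7% of all genes, with a median log2 KO/WT of -0.30. Cyp7a1 is on this list too and was its only gene more than 1.5-fold lower. Pfkfb1 had a ratio of 0.700 and Ttr one of 0.961.

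**Figure D4:**
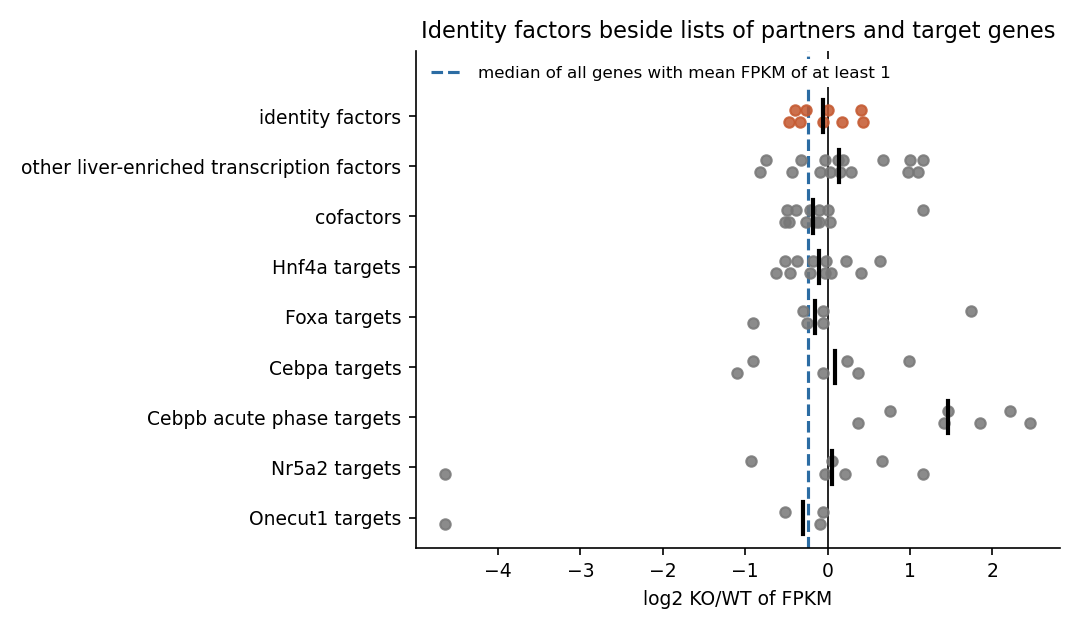
log2 KO/WT of FPKM for the identity factors (orange) and for lists of partner and target genes (grey), 1 point per gene averaging 1 FPKM or more, a black bar at the median of each list and a dashed line at the median of all genes, -0.24. The identity factors span -0.47 to 0.43, the acute phase genes lie at 0.36 and above, and Cyp7a1 lies at -4.64 in 2 lists.

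Markers of other cells also differed between the libraries, against a background in which 75.7% of all genes were lower in KO by any amount. Of all genes, 20.2% were more than 1.5-fold lower and 8.91% more than 2-fold lower in KO. Of 6 macrophage markers 5 were more than 1.5-fold lower in KO, and their summed FPKM was 52.8 in WT and 33.8 in KO. Of 6 endothelial markers 5 were more than 1.5-fold lower, with sums of 46.9 and 33.6. The 5 stellate cell markers summed to 25.3 and 17.1, with 1 of them more than 1.5-fold lower. Cholangiocyte markers summed to 30.1 in WT and 26.2 in KO, most of it Spp1, with Krt19 at 1.72 and 0.559. Neutrophil markers summed to 12.8 and 6.81 with Ly6g and Mpo listed at 0, and lymphocyte markers to 0.310 and 0.185. Cebpb is also expressed in macrophages, and Foxa1, Foxa2 and Onecut1 in cholangiocytes. In bulk tissue, fewer cells of a type and less RNA per cell cannot be told apart, and the part of these cells in the values of the factors was not tested. The 6 proliferation markers were all more than 2-fold lower in KO, together 174 FPKM in WT against 13.9 FPKM in KO, and the part of the cell cycle in the values of the factors was not tested.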

How the data were processed

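RNA-seq of regenerating livers covered 1 library per genotype. According to the submitters' processing notes and the study's methods, the authors aligned the reads with TopHat2 2.0.0 to NCBI37 (mm9), assembled transcripts with Cufflinks 1.3.0 and estimated FPKM per locus with Cuffdiff. The authors' deposited FPKM values (38016 rows) were used as deposited. Quartile normalization is not given in the sources used here. The labels describe paired end and the methods single end reads. The columns of the authors' own comparison (fold change, statistic, p-value, q-value) were not used. The 21 rows marked HIDATA were left out, and rows of the same gene were summed. Rows naming several genes, 850 in all, counted as 1 entry among all genes, and 2302 rows had no symbol.

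KO/WT ratios were taken without a pseudocount, among genes averaging 1 FPKM or more. No test across samples was run. Fragments were estimated from the most frequent low value of single-exon genes (917 in WT and 876 in KO) and the longest transcript in GENCODE vM1 (NCBIM37), whose coordinates are printed, counted from 1. Promoter windows come from RefSeq on GRCm38.p6. The scripts ran under Python 3.11.15 with scipy 1.17.1, pandas 2.3.3, numpy 2.4.6 and, for plots, matplotlib 3.10.9. Simulated data with counting error only tested the recovery of the value of a fragment, of a common shift and of planted changes. They also tested the coverage of the ratio intervals, and the other steps were not simulated.

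The factors and all lists were chosen with earlier results of these data known. Genes of the lists averaging 1 FPKM or more, the 9 factors, Ppard and genes overlapping or near a factor could be named. Alternatives covered the pseudocount, the filter, the scaling, the handling of rows and the transcript length. Protein sequences were not used here, and a few list members and a motif are not reported here.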

Additional observations from a re-analysis of the deposited data

How the results depend on the processing

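Scaling was the choice that mattered most. With equal upper quartiles of FPKM, and after centring on the median of all genes, 2 of the 9 factors (Foxa3 and Prox1) were more than 1.5-fold higher in KO in place of 0. The median log2 KO/WT of the factors changed sign to 0.23 and 0.19, and so did that of Foxa2, to 0.23 and 0.19. Onecut1 changed sign with equal upper quartiles only, to 0.020, and Nr5a2 with equal sums of FPKM only, to -0.012. These shifts follow from the construction of the scaling, which moves all genes alike. A pseudocount of 1 FPKM moved the Foxa1 share of the summed Foxa FPKM to 10.6% in WT and 6.87% in KO. The counts of factors more than 1.5-fold lower in KO, or past 2-fold in either direction, were 0 under every alternative run, and Prox1 and Foxa3 were higher and Foxa1, Cebpa and Cebpb lower in KO under every alternative run. Keeping only rows with status OK gave no value for Hnf4a, and keeping only rows of 1 symbol gave none for Onecut1. The median log2 KO/WT of the remaining 8 factors was -0.157 without Hnf4a, beside -0.244 for all genes. Without Onecut1 it was -0.024, beside -0.246 for all genes. With the shortest annotated transcript the fragments behind Hnf4a in WT would be 3978 in place of 40256. No paired analysis was possible because each genotype has a single library, and no library could be left out for the same reason. Depth did not limit the levels of the factors, but the spread between mice is unknown, so no ratio here can be set against it.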

Other observations

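Of 9 family paralogs of the factors, 5 had a mean FPKM of at least 1 and none of these differed by more than 1.5-fold between the libraries. Among all genes, 20.2% were more than 1.5-fold lower and 4.15% more than 1.5-fold higher in KO. Cebpg, a C/EBP without an activation domain, had 13.2 FPKM in WT and 15.1 FPKM in KO, and Onecut2 had 7.66 and 9.35, close to the level of Onecut1. Hnf4g (0.0400 and 0.0265) and Prox2 (0.503 and 0.463) were low, and Onecut3 and Nr5a1 were listed at 0 in both libraries; these genes were named after their values were seen. Of 9 lineage factors of other organs, 4 were listed at 0 in both libraries. Only Neurod1 of that list averaged 1 FPKM or more (1.18 and 3.16), and its row is shared with the gene Cerkl.

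Unnamed assembled loci lay near some of the factors, 9 of them within 50 kb, and all but 1 were below 1 FPKM in both libraries, where 3 fragments on 1 kb are worth 0.0558 FPKM in WT. Of these loci, 7 were higher and 2 lower in KO. Among genes averaging 1 FPKM or more, a mean that these loci did not reach, 75.7% were lower. The loci below were chosen for naming after their values were seen. A locus 6.79 kb beyond Cebpa (chr7:35913734-35928057, NCBIM37) had 1.16 FPKM in WT and 0.352 FPKM in KO, a KO/WT ratio of 0.304, well below the 0.761 of Cebpa itself. The most abundant of 3 unnamed loci near Prox1 had 0.670 FPKM in WT and 0.823 FPKM in KO. On the other side of Cebpa, a locus 0.837 kb away had 0.0822 in WT and 0.266 in KO. The strand of these loci was not analysed here, and reads that extend from the gene beside them were not told apart from separate transcripts.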
